A study of Homo sapiens with 4 samples.

Results

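CHD5 peaks that lie in wide stretches of the histone mark H3K27me3 were examined in SH-SY5Y cells. This neuroblastoma line of human origin differentiates towards neurons under retinoic acid. Neighbouring H3K27me3 regions with gaps of at most 3 kb formed a domain, and a domain of at least 5 kb was called wide. A CHD5 peak was a member if it shared at least 1 bp with an H3K27me3 region of a wide domain on chromosomes 1 to 22. This gave 366 members among 32250 autosomal CHD5 peaks and 32543 in all, or 1.13% of the autosomal peaks (exact binomial 95% interval 1.02% to 1.26%). Members were chosen by the measured positions of the calls in both lists, so their counts and the shares covered are descriptions.

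The study holds 4 chromatin immunoprecipitation libraries with 1 library in each group, so there is no replicate error and no test between groups. All cells were in 10 uM retinoic acid for 8 days. Cells expressing FBio-CHD5 gave 3 of the libraries: a pull-down on streptavidin beads, an H3K27me3 precipitation with an antibody, and input DNA. Cells expressing FBio-Ctrl gave a pull-down on the same beads. The lists of CHD5 peaks and H3K27me3 regions were used, and the control pull-down and the input were not analysed here, so no background list could be set beside the peaks. The CHD5 measured is the introduced FBio-CHD5 and not the cells' own protein. The labels do not say whether each line was 1 clone. Region lists carry no expression values, so the identity of the cells was not checked, and they carry no read counts, so depth is unknown. All intervals in the text are exact binomial 95% intervals unless named otherwise, cover counting error only, and treat peaks as independent.

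CHD5 is a chromodomain helicase, a motor protein that moves or evicts nucleosomes, and works as part of NuRD-type complexes in neurons. H3K27me3 is written by Polycomb repressive complex 2, is bound by Polycomb repressive complex 1, and spreads over domains that hold silent developmental genes. The study's title gives CHD5 a part in both active expression and Polycomb repression. The members are the places within wide domains where CHD5 and H3K27me3 were listed in the same stretch of chromatin. Positions are given in hg19, counted from 1. The gene table at hand belongs to another build, so positions carry no gene names and no sequence is shown.

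Members lay in 290 of the 9530 wide autosomal domains, or 3.04% (2.71% to 3.41%). Wide domains spanned 154 Mb and held 78.0% of the autosomal H3K27me3 regions. Members touched 755 of those 187127 regions. Of the 407 CHD5 peaks that met the span of a wide domain, 366 met a region in it and 41 lay in the gaps between regions. Of the 684 autosomal CHD5 peaks on any H3K27me3 region, members were 53.5%, and the other 318 met narrower domains only.

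The width limit cut through a continuous range. The members nearest above it were 2 peaks, chr1:931272-933242 and chr1:935537-937944, in a domain of 5029 bp, and 1 peak, chr18:7565499-7566675, in a domain of 5008 bp. Nearest below it were 2 peaks, chr11:57224288-57225779 and chr11:57225908-57226843, in a domain of 4845 bp, and 1 peak, chr1:108757260-108758258, in a domain of 4754 bp. Scores, the authors' own value per peak, were 156, 185 and 91.0 for the former and 51.1, 60.1 and 66.0 for the latter.

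Most members lay wholly within their domain, and they were spread from its ends to its centre. Wholly inside were 286 of 366, or 78.1% (73.6% to 82.3%). A domain end was crossed by 79 members, and 1 member covered its whole domain from end to end. The midpoint of 42 members lay beyond the end. For the other 324, position was measured as the distance of the midpoint from the nearest end, relative to that of the domain's centre, so that 0 is an end and 1 the centre. The median position was 0.556 (0.472 to 0.593). From the end to the centre, 5 equal steps of this scale held 60, 62, 62, 68 and 72 members. The steps cover equal lengths of a domain. Their counting intervals overlapped, from 14.4% to 23.2% of members for the outermost and from 17.8% to 27.1% for the innermost. Members wholly inside were called central at a position of at least 0.5 (170 members) and peripheral otherwise (116).

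In absolute terms most members lay close to an end, as did much of the sequence of wide domains. The midpoint lay within 5 kb of an end in 180 of the 324 members, or 55.6%, and within 10 kb in 245. More than 20 kb from any end lay 28 members, or 8.64% (5.82% to 12.2%). The median distance was 4379.5 bp, and the median width of a member's domain was 16649.5 bp. Of the 154 Mb in all wide domains, 19.1 Mb lay in the first kb from an end. A further 19.1 Mb lay from 1 to 2 kb and 43.6 Mb from 2 to 5 kb. The distances in bp therefore also reflect how short the domains are, and that part was not tested.

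Members were placed differently in short and in long domains. In domains of 5 to 10 kb, 41 of 110 members crossed an end, or 37.3% (28.2% to 47.0%). In domains of 100 kb or more, 3 of 34 did, or 8.82% (1.86% to 23.7%). Domain width itself differs between these classes, and its part in the crossing share was not tested. Midpoints within the domain also lay farther from the centre in long domains, with a median relative position of 0.625 in domains of 5 to 10 kb and 0.324 in those of 100 kb or more. A position of at least 0.5 was held by 57 of 90 midpoints in the shortest class, or 63.3% (52.5% to 73.2%), and by 11 of 32 in the widest, or 34.4% (18.6% to 53.2%). These intervals overlap slightly, and the difference was not tested.

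CHD5 was sparse throughout wide domains and in the first kb outside them. All CHD5 midpoints were counted here, with or without an H3K27me3 region under them. Inside wide domains there were 365 midpoints, or 2.37 per Mb (exact Poisson 95% interval 2.13 to 2.62), against 11.7 per Mb in the rest of the autosomal span (11.6 to 11.8). By distance inward from the end, density was 2.05 per Mb in the first kb, 2.73 from 2 to 5 kb, 2.44 from 10 to 20 kb and 1.52 from 20 to 50 kb, with Poisson intervals that overlapped. Outward, it was 2.15 per Mb in the first kb and 4.05 from 1 to 2 kb. It was between 2.98 and 3.54 per Mb from 2 to 20 kb, and reached 6.31 from 20 to 50 kb, 7.93 from 50 to 100 kb and 13.1 from 100 to 500 kb. The bins on either side of the domain end thus had like densities. Inside the domain, density was highest from 2 to 5 kb and lowest from 20 to 50 kb. The intervals of these bins overlapped only narrowly, and overlap does not show that densities were equal. The difference was not tested.

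**Figure D1:**
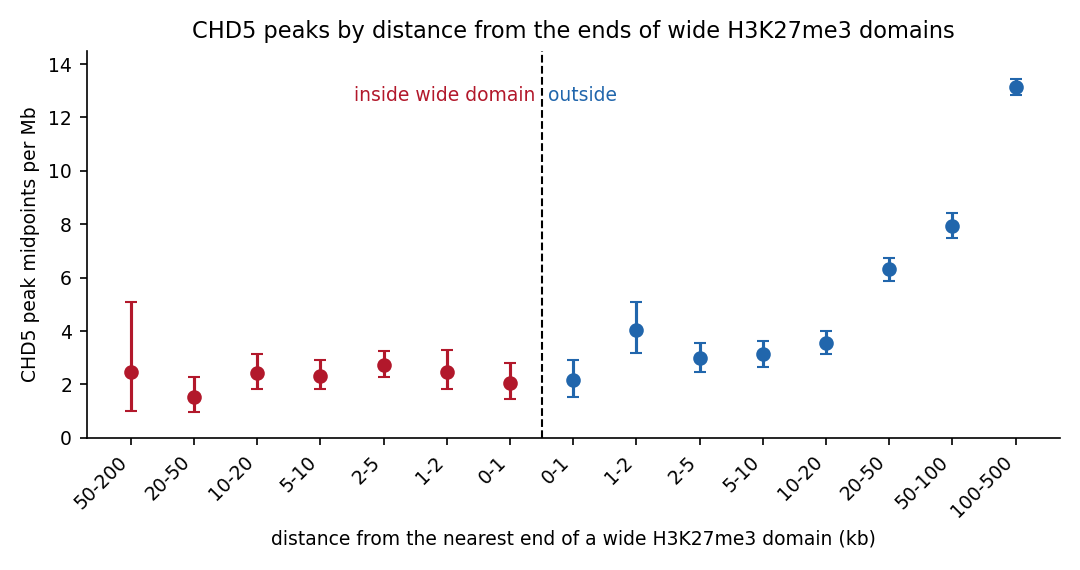
CHD5 peak midpoints per Mb of sequence (y axis) by distance in kb from the nearest end of a wide H3K27me3 domain (x axis, bins of unequal width), inside the domain in red and outside in blue, with exact Poisson 95% intervals. Density stays between 1.52 and 2.73 per Mb inside and climbs from 2.15 per Mb next to the domain to 13.1 per Mb at 100 to 500 kb.

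Coverage of single members ranged from 7 bp to the whole peak. The share of a member covered by H3K27me3 regions had a median of 52.4% (43.6% to 57.9%) and ran from 0.708% to 100%. At least 50% was covered in 187 members, under 10% in 32, and all of the peak in 18. In peaks that met narrower domains only, the median was 18.9% (17.2% to 21.2%). A single region was touched by 158 members, 2 regions by 108, 3 by 58, and 4 or more by 42, with a highest count of 14.

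Coverage differed with where the peak lay. Central members had a median of 56.9% (46.4% to 65.8%), peripheral ones 68.5% (56.7% to 74.4%), and those that crossed 1 end 23.1% (19.1% to 28.9%). The intervals of central and peripheral members overlapped. Their domains also differed, with a median width of 15909 bp for central and 30672 bp for peripheral members. Both classes ask that the whole peak fit inside, which leaves little room for peripheral members in short domains. The part of domain width in their coverage was not tested. Crossing members had a median of 51.6% of their length beyond the domain, which limits what can be covered. Coverage also followed the domain's own density of H3K27me3, with a Spearman rho of 0.454 across the 366 members. These share the 2 libraries and in part their domains. The domain's density includes the sequence under the member, so the 2 measures are tied in part by construction. In domains of 5 to 10 kb the median covered share was 34.5% and in those of 100 kb or more 82.9%, while the regions filled a median of 40.3% and 76.8% of the same members' domains.

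For each member, the part inside the domain was set against the rest of its domain. The covered share was a median of 66.0% under the peak and 56.6% in the rest, and the median of the paired differences was 7.85 percentage points (4.47 to 12.2). It was higher under the peak in 217 of 365 members, or 59.5% (54.2% to 64.5%), the member that fills its domain being left out. The rule asks for at least 1 bp in a region, which lifts the value under the peak. With the 41 peaks in gaps added, a choice made after the data were examined, the median difference was 4.10 points (-0.986 to 7.85), and coverage was higher under the peak in 217 of 406.

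Of the central members, 53.5% had an H3K27me3 region at the midpoint, 57.6% at 2 kb to the left and 55.9% at 2 kb to the right. The share was 27.1% and 25.3% at 10 kb on either side. Midpoints of peripheral members stood on a region in 67.2%. For crossing members, turned so that the domain lies to the right, a region stood at 6.25% of positions 2.5 kb outward and at 47.5% of positions 2.5 kb inward. Joining leaves no region within 3 kb beyond a domain end, which lowers the outward share by construction. The rule asks for an overlap, which lifts the share near the midpoint. Over all 407 peaks in wide domains, with or without a region, the share was 48.6% at the midpoint and 48.6% and 48.9% at 2 kb to the left and right.

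**Figure D2:**
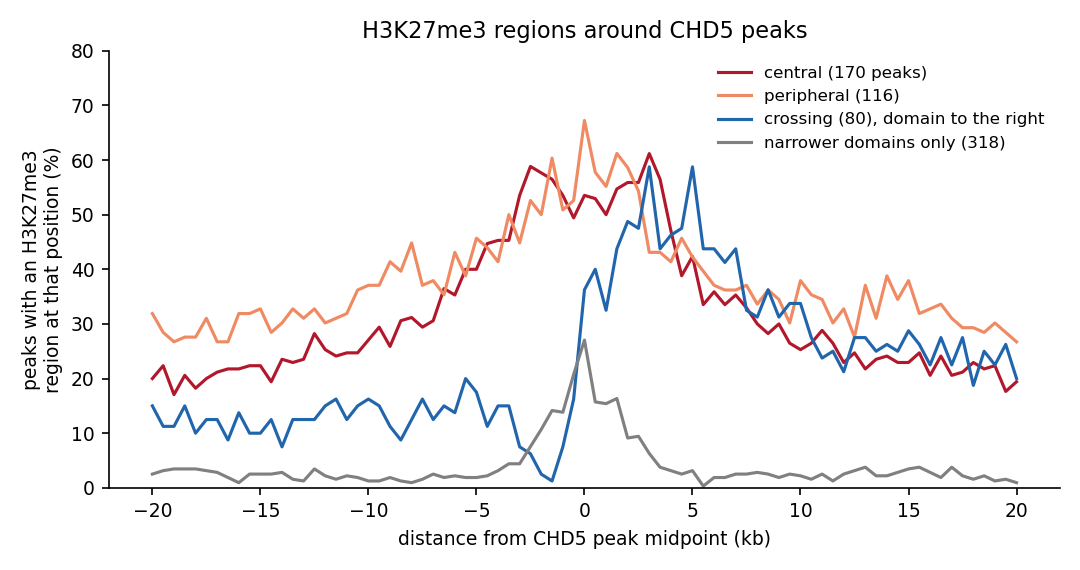
Share of CHD5 peaks with an H3K27me3 region at each distance (kb, in steps of 500 bp) from the peak midpoint, for central members, peripheral members, those crossing a domain end (domain turned to the right), and for peaks that met narrower domains only. Central and peripheral members have 53.5% and 67.2% at the midpoint, and crossing members go from 6.25% at 2.5 kb outward to 47.5% at 2.5 kb inward. Joining leaves no region within 3 kb beyond a domain end, which lowers the outward share by construction.

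The regions that members touched scored higher than others of the same domain. Scores come from the H3K27me3 list and are compared within it only. In the 286 domains with both kinds, touched regions had a median score of 164 (144 to 206) and untouched ones 107 (101 to 116). Touched regions scored higher in 186 of the 286, or 65.0% (59.2% to 70.6%). They were also wider, with medians of 431 bp and 290.2 bp, and wider in 202 of the 286. A wide region is easier to touch, and the part of width in the score difference was not tested. The domain's highest-scoring region was touched in 102 of the 286, or 35.7% (30.1% to 41.5%), where the median domain had 11.1% of its regions touched. A region drawn at random would meet the mean share over domains, which was not computed. The difference was not tested.

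Domains with a member were denser in H3K27me3 than other wide domains of the same width class. From 10 to 20 kb, regions filled a median of 53.5% of the 80 domains with a member and 36.3% of the 2815 without. At 50 kb or more the medians were 71.8% in 50 domains and 54.8% in 354, and from 5 to 10 kb they were 39.6% in 100 and 31.7% in 4500. The median region score in these domains stood in the same order, with 112 against 85.0 from 10 to 20 kb and 161 against 117 at 50 kb or more. A domain that is filled more is more likely to meet the 1 bp rule, and how much of the difference this makes was not tested. At 50 kb or more, width also differed within the class. A member lay in 16 of 70 domains of 100 kb or more and in 34 of 334 from 50 to 100 kb. Regions filled a median of 66.5% of all domains in the former and 55.1% in the latter. The part of width within a class was not tested.

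Members scored lower in the CHD5 list than other CHD5 peaks. Their median score was 97.1 (86.2 to 105.7), with the central 80% between 55.0 and 257, against 118 (116.5 to 119) for the 31884 other autosomal peaks. At or above the median of the whole list, 117, lay 138 of 366 members, or 37.7% (32.7% to 42.9%), beside a background of 50.2% of all autosomal CHD5 peaks. Peaks that met narrower domains only had a median of 119.6 (108 to 128.5), and 50.9% of them reached that level. The share of CHD5 peaks that were members went from 1.58% (1.31% to 1.87%) in the lowest quartile of scores through 1.25% and 1.09% to 0.620% (0.461% to 0.817%) in the highest.

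Split into classes of CHD5 peak width, the difference in median score was larger in the 2 classes of wide peaks. Member width had a median of 1570 bp (1480 to 1725), against 1652 bp (1641 to 1662) for other peaks, and score followed width among members, with a Spearman rho of 0.608 (n = 366). Members of 2 to 5 kb had a median score of 158 (n = 114) and other peaks of that width 246 (n = 10491). At 5 kb or more the medians were 147 (n = 14) and 606 (n = 864). From 1 to 2 kb they were 89.7 and 98.3, and under 1 kb 59.9 and 61.6. Widths within a class were not equal, with medians of 2894 bp for members and 2640 bp for others from 2 to 5 kb, and 6307 bp and 6031.5 bp at 5 kb or more. The 14 members of 5 kb or more were 3.83% of members (2.11% to 6.33%), beside a background of 2.72%. On chromosomes 1, 2 and 7, named after the values were seen, lay 13 of them, and the other lay on chromosome 3. Chromosomes 1, 2 and 7 held 3507, 3037 and 2257 of the 32250 autosomal CHD5 peaks.

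Members with most of their length in H3K27me3 had lower CHD5 scores than less covered ones. The median score was 112 with under 25% covered and 123 (98.6 to 143) with 25% to 50% covered. It was 94.99 from 50% to 75%, 79.6 from 75% to 90%, and 75.6 (68.6 to 86.2) at 90% or more. At or above the list median score lay 44 of 81 members covered by 25% to 50%, and 10 of 68 covered by 90% or more. The Spearman rho of score and covered share was -0.254 across 366 members. Width moves with both: median width was 1835 bp in the least covered class and 1432 bp in the most covered, and its part in the relation was not tested. Scores also differed by position, as did widths. A wide peak reaches across an end more easily, and the part of width in these scores was not tested. Members crossing 1 end had a median score of 142 (114 to 160) and a median width of 2215 bp, against 85.0 (79.8 to 103) and 1502.5 bp for central and 86.8 (75.4 to 99.0) and 1438 bp for peripheral members. The score of the strongest H3K27me3 region touched showed no such order. Median CHD5 score was 93.1 where that region scored 50 to 100 and 99.0 where it scored 1000 or more.

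**Figure D3:**
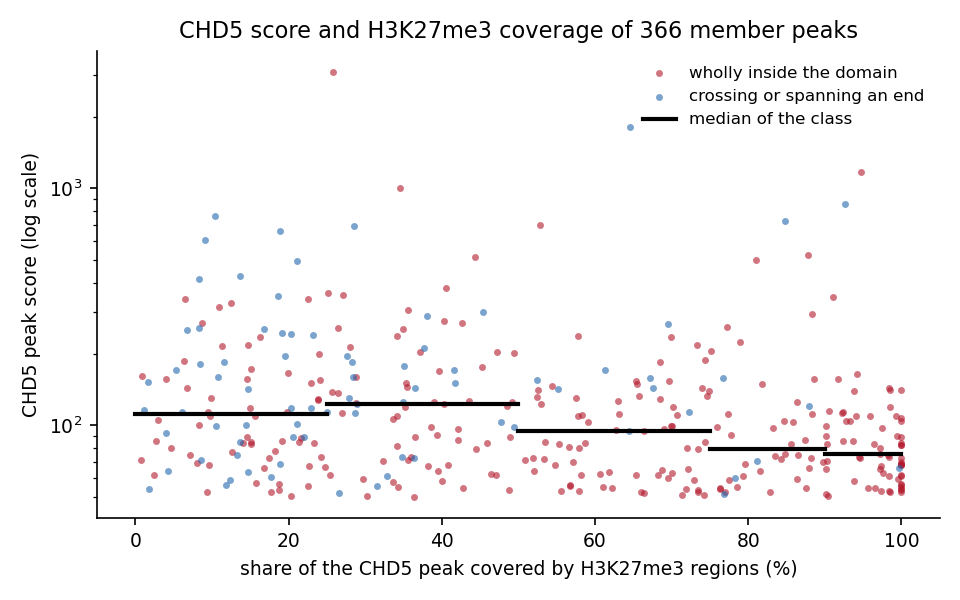
CHD5 peak score (y axis, log scale, the authors' value) against the share of the peak covered by H3K27me3 regions (x axis, %), one point per member, with members wholly inside their domain in red and those that cross or span its ends in blue, and bars at the median of each coverage class. Class medians go from 123 at 25% to 50% covered to 75.6 at 90% or more.

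The 18 fully covered members were all wholly inside their domains, which follows from the rule. Joining leaves no region just beyond a domain end, so a crossing peak cannot be fully covered. The 18 had a median score of 68.1 (56.2 to 73.0), with 1 of 18 at or above the list median. Their median width was 1205.5 bp, against 1570 bp for all members, and score followed width among members. An H3K27me3 region that scored at least 1000 was touched by 16 of 18, beside 93 of all 366 members. The part of peak and region width in these values was not tested. The longest of the 18 was chr7:155171416-155174817, with 3402 bp in 1 region and a CHD5 score of 89.7. Next came chr17:46225430-46227800, with 2371 bp and a score of 70.1. It was followed by chr1:144337574-144339555, with 1982 bp and a score of 55.0. A second peak of that domain of chromosome 7, chr7:155325428-155327329, scored 56.2, and one in another domain, chr7:155603691-155605244, scored 104. The peak chr2:19554353-19556251 had the highest score of the 18, 141. The other 4 of the 10 longest were chr12:132959903-132961568, chr6:862077-863366, chr5:122429413-122430692 and chr18:76776154-76777284, with scores of 61.3, 68.7, 68.0 and 107.

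The highest CHD5 scores included both sparsely and densely covered peaks. Of the 10 members with the highest scores, 5 crossed 1 end and 1 covered its whole domain. The latter, chr2:1218152-1227555, scored 1822 and ran past both ends of a domain of 8.00 kb that held 14 regions. The crossing members were chr4:1420838-1423294, with a score of 859, and chr11:43596416-43600311, with 766. The others were chr5:180515417-180518936, with 730.2, chr11:410105-413078, with 693, and chr2:6889662-6893184, with 661. The domain of the first spanned 27.8 kb and those of the other 4 between 5.67 and 11.4 kb. The peaks on chromosomes 4 and 5 were covered by 92.6% and 84.7%, and the other 3 by 10.3% to 28.5%.

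The other 4 of the 10 were central. The highest score of all, 3100, was that of chr7:1395499-1399295, 48.9 kb from the nearest end of a domain of 124 kb. No score in the CHD5 list was higher, and 10 peaks of the list, 1 of them a member, had exactly this value. In the H3K27me3 list 313 regions had it and 21 scored higher, so high scores may be capped. Regions filled 76.3% of that domain but 25.8% of the peak. The peak chr16:1141719-1143797 scored 1002 and lay near the centre of a domain of 67.8 kb, with 34.5% covered where the domain was filled by 46.7%. Coverage was high in the peak chr17:1211117-1215370, which scored 1169 and had 94.7% in 1 region of score 3100. The peak chr7:13503738-13509248 scored 703 and had 52.8% covered.

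The members with the most sequence in H3K27me3 were long peaks with both low and high CHD5 scores. The peak chr3:197825364-197832993 shared 7218 bp and scored 72.7, and chr1:144323227-144330617 shared 7210 bp and scored 62.8. The peak chr2:1218152-1227555 shared 6067 bp, and chr7:149740867-149747911 shared 5602 bp with a score of 68.4. The other 6 of the 10 shared between 4061 and 5078 bp and scored between 73.6 and 236. Of those, 3 lay on chromosome 1, chr1:145260671-145265469, chr1:147927779-147933193 and chr1:149220171-149225976. The other 3, on chromosome 7, were chr7:65016361-65022715, chr7:65095364-65100185 and chr7:65110732-65120721.

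Several members lay deep within long domains. The farthest from any end, by 115 kb, was chr7:149740867-149747911, in a domain of 295 kb. It was followed by chr17:46662363-46663305, 106 kb from an end, with a score of 65.4 and 97.1% covered. Next were chr7:27189711-27191600 at 64.3 kb, with a score of 86.2, chr6:26735172-26736274 at 62.5 kb, with 65.3, and chr7:155276171-155277549 at 56.8 kb, with 59.5. All 5 scored below the list median and were covered by at least 79.5%. Nearest to a centre in relative terms were chr6:30070467-30071529, at a position of 0.990, chr7:28611935-28614853 and chr7:1267478-1269018, at 0.983 and 0.982, and chr7:113531174-113532118, at 0.968. The fifth was chr16:1141719-1143797, at 0.965. These 5 were covered by 17.5% to 97.4%, so that centre positions held no one level of H3K27me3.

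Members shared domains in 52 of the 290 cases, or 17.9% (13.7% to 22.8%), and these domains held 128 of the 366 members. Neighbouring members of a domain were separated by a median of 3124 bp, from 12 bp to 103 kb. A domain with 3 or more members occurred 18 times and held 60 members.

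The domain with the most members was chr2:176943252-176975848. It spanned 32.6 kb, was filled with H3K27me3 by 65.9%, and held 6 members that took up 22.1% of it. In order along the chromosome the CHD5 scores were 83.5, 70.9, 98.3, 155, 65.0 and 196, and the shares covered were 90.3%, 90.2%, 38.6%, 69.7%, 68.8% and 19.6%. The last of them crossed the end. The highest score belonged to the least covered of the 6.

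The domain chr7:155162094-155333670 spanned 172 kb, was filled by 94.7%, and held 4 members spaced 29.2 to 70.7 kb apart. Their scores were 89.7, 71.9, 59.5 and 56.2 and their shares covered 100%, 84.2%, 99.6% and 100%. All 4 scored below the list median. The domain chr1:87795541-87838487 spanned 42.9 kb and was filled by 38.3%. Its 4 members scored 101, 99.3, 79.8 and 216 and were covered by 21.0%, 70.1%, 73.5% and 11.3%. The domain chr20:20342104-20353649 spanned 11.5 kb, and its 4 members sat 285 to 546 bp apart towards its start. They scored 85.2, 52.3, 75.4 and 80.7, and their coverage went up from 13.6% at the domain end through 66.0% and 86.5% to 97.2%.

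**Figure D4:**
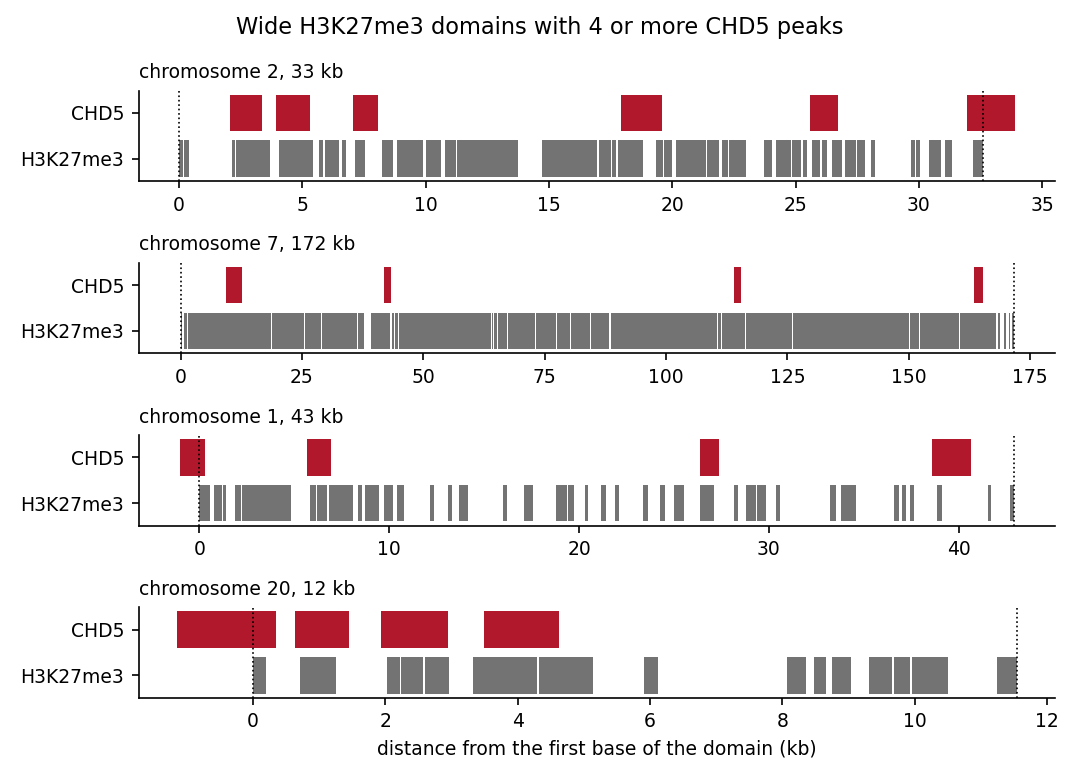
The 4 wide domains with 4 or more members, each drawn to its own scale in kb from its first base, with H3K27me3 regions in grey, CHD5 members in red and dotted lines at the domain ends. The domain of 172 kb is filled by 94.7%, whereas that of 43 kb is filled by 38.3%, and members cross an end in 3 of the 4.

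The 14 domains with 3 members lay on 6 chromosomes. Chromosome 7 had 4 of them, chr7:149628944-149924212, chr7:1348462-1472295, chr7:1224357-1310618 and chr7:25897371-25911007. In the first, the peak that crossed the end scored 185 with 28.3% covered, and the inner ones scored 50.2 and 68.4 with 90.4% and 79.5% covered. In the fourth, the crossing peak scored 243 with 20.3% covered, and the inner ones scored 119 and 61.0 with 70.1% and 79.3% covered. The third had scores of 123, 97.2 and 73.0 with 40.2%, 97.4% and 100% covered. In each of these 3 domains the least covered member had the highest score. The second did not show this order, with scores of 60.5, 3100 and 115 at 17.7%, 25.8% and 90.6% covered. Over all domains the order was mixed. The least covered member had the highest score in 11 of the 18 domains with 3 or more members, and the less covered of a pair scored higher in 14 of the 34 domains with 2.

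Chromosome 2 had 3 such domains, chr2:19550755-19591602, chr2:2325544-2338370 and chr2:171669834-171681490. Members took up 66.9% of the second, a domain of 12.8 kb, and scored 144, 67.6 and 147. Chromosome 1 had 3, chr1:144320289-144399782, chr1:161487466-161563033 and chr1:200970719-200995916. Members of the first scored 62.8, 55.0 and 157 and were covered by at least 91.7%. Chromosome 17 had 2, chr17:79359662-79381616, with shares covered of 84.8% to 92.3%, and chr17:48038628-48051973, with 63.1% to 100%. Chromosome 12 had 1, chr12:54293801-54406733, with scores of 53.7, 149 and 65.8 and shares covered of 100%, 65.4% and 72.1%. Chromosome 18 had 1, chr18:74196911-74215799, where regions filled 31.5% of the domain and scores ran from 61.6 to 128.

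Of the 70 domains of 100 kb or more, 16 held a member, or 22.9% (13.7% to 34.4%), with 34 members in all. Besides those named, 9 held 2 members. On chromosome 17 these were the domains chr17:46533318-46769108, chr17:46773881-46896037 and chr17:47025324-47188628. The first of these had scores of 65.4 and 52.6 with 97.1% and 98.6% covered, and the third had scores of 64.3 and 61.6 with 81.5% and 100% covered. The second had both its members at 1 end, with scores of 104 and 99.5. On chromosome 7 they were the domains chr7:27087073-27254910, with scores of 86.2 and 52.9 at 93.7% and 98.4% covered, and chr7:153639321-153803607, with 72.5 and 53.4. The others were chr1:147914438-148015813, chr1:148755082-148929717, chr6:26662511-26798196 and chr15:28687052-28815767, with scores of 56.8 to 140. A single member lay in the domains chr7:143397907-143542047, chr1:161568518-161710807 and chr18:77142264-77257932, with scores of 51.0, 306 and 156. The median score in domains of 100 kb or more was 70.2, against 89.9 to 105.7 in the narrower classes. A longer domain offers more sequence in which to meet a peak. Per Mb of domain there were 3.46 members at 100 kb or more and 3.40 from 5 to 10 kb. The classes between had 1.65 to 2.40.

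Chromosomes contributed unevenly. Chromosome 7 had 60 members, chromosome 1 had 53, and chromosomes 2 and 17 had 38 each. These 4, picked for their counts, held 51.6% of members (46.4% to 56.9%), beside a background of 32.3% of all autosomal CHD5 peaks. Of its own CHD5 peaks, chromosome 7 had 2.66% as members (2.03% to 3.41%), chromosome 18 had 2.47% (1.45% to 3.93%), chromosome 17 had 2.35% (1.67% to 3.21%) and chromosome 19 had 2.09% (1.20% to 3.37%). Chromosome 3 had 0.279% (0.102% to 0.606%), from 6 of 2151 peaks, and chromosome 21 had 1 member of 306. Per Mb of wide domain, chromosome 17 had 6.06 members, chromosome 2 had 4.81 and chromosomes 1 and 10 had 4.15 each, against 0.971 on chromosome 6, which held 14.4 Mb of wide domains, and 0.304 on chromosome 21.

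**Figure D5:**
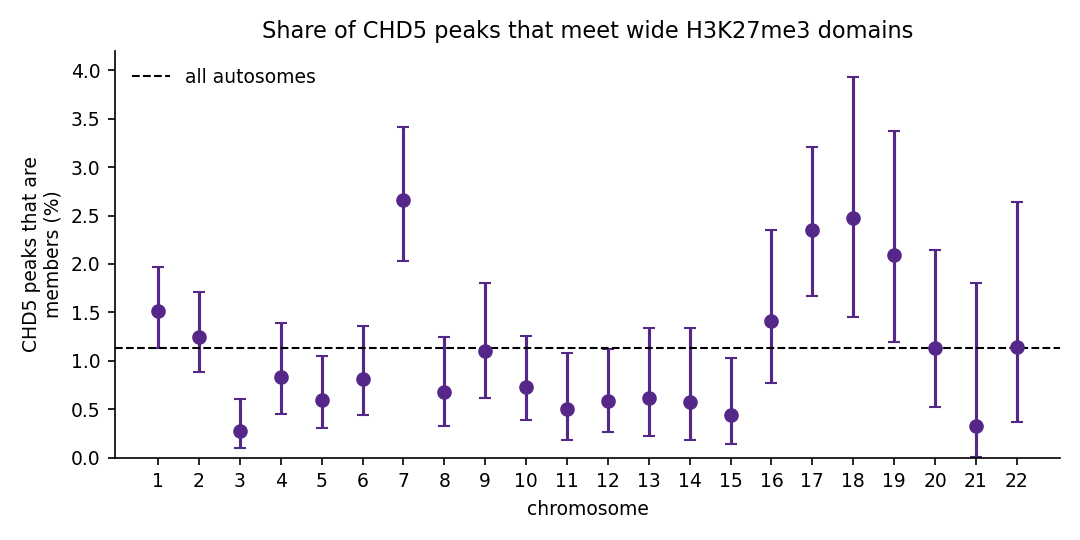
Share of each chromosome's CHD5 peaks that are members (y axis, %) for chromosomes 1 to 22, with exact binomial 95% intervals and a dashed line at the autosomal share of 1.13%. The intervals of chromosomes 7, 17, 18 and 19 lie wholly above the line, with shares from 2.09% to 2.66%, and chromosome 3 lies lowest at 0.279%.

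Members were frequent towards chromosome ends. A midpoint within 5 Mb of the first base or of the last listed region of its chromosome was found in 96 of 366 members, or 26.2% (21.8% to 31.1%), beside a background of 8.93% of all autosomal CHD5 peaks. Of the peaks that met narrower domains only, 53 of 318 lay there, or 16.7% (12.7% to 21.2%). Wide domains themselves had 11.8% of their length there. Counted the other way, 3.33% of CHD5 peaks near an end were members (2.71% to 4.06%), against 0.919% elsewhere (0.813% to 1.04%). Members near chromosome ends were also more covered, with a median of 75.5% (64.5% to 85.9%) against 44.0% (37.7% to 52.4%), while their median scores were 89.9 (83.6 to 112) and 98.4 (85.6 to 109.7). Of 39 chromosome ends with any CHD5 peak in that reach, 26 held a member, and 7 held at least 5 and 51 in all. The far end of chromosome 18 had the most, 12 of 40 CHD5 peaks, with a median of 87.7% covered. The start of chromosome 7 had 8 of 124, with 92.6% covered, the start of chromosome 2 had 7 of 107, and the far end of chromosome 17 had 7 of 148.

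A further run of members lay on chromosome 1 between 143 and 150 Mb, a stretch singled out after its values were seen as the run of 1 Mb windows with a member around that chromosome's fullest window. There 22 of 55 CHD5 peaks were members, in 16 domains. These members were wide, with a median of 3574.5 bp (2238 to 4578), and scored between 54.4 and 236. The windows of 1 Mb with most members held 6 each. They were chr1:148000001-149000000 among 8 CHD5 peaks, chr18:76000001-77000000 among 10, chr2:176000001-177000000 among 22, and chr7:1000001-2000000 among 34.

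Members stood farther from other CHD5 peaks. The nearest other CHD5 midpoint was at a median of 30.7 kb (21.7 to 39.8 kb), against 14.9 kb (10.7 to 18.2 kb) for peaks that met narrower domains only and 12.8 kb (12.5 to 13.1 kb) for peaks on no H3K27me3 region. Within 100 kb the median member had 2 other CHD5 peaks, and the median peak on no region had 4.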

How the data were processed

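Per the file headers, both lists are MACS peak calls from 1 library each. Positions are on hg19, which the submitters' processing notes name as the build. No source used here gives the MACS version, its threshold, its background library or the aligner, and peak calls depend on all of them. A broad mark can be split into many calls, which joining the regions partly offsets. The score of each peak was deposited by the authors as the peak caller gave it. Its lowest value is 50 in both lists, its scale is not stated, and it was used within its own list only.

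Overlaps were computed in Python 3.11.15 (pandas 2.3.3, numpy 2.4.6, scipy 1.17.1), checked with bedtools 2.31.1 and tested on simulated data. Figures were drawn in matplotlib 3.10.9. The 1 member meeting 2 wide domains was placed in the one sharing more bp. Intervals of medians are exact binomial (order statistic) ones.

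Named positions are the 10 members highest in score, in bp covered and in share covered, those in domains with 3 or more members or of 100 kb or wider, the 5 most central, the 5 farthest from an end, and those next to the width limit. The members, rules and lists were chosen with earlier results of these data known. Distance bins, chromosome ends, the grouping of chromosomes 1, 2, 7 and 17, score and width classes and the order of scores within domains were added after values were seen. Gene starts and gene lists were not analysed here.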

Additional observations from a re-analysis of the deposited data

How the results depend on the processing

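The median relative position of members kept within its interval in 8 of 8 alternatives, from 0.499 to 0.560. Other values moved with the choices, in part because stricter rules leave fewer peaks. Joining across up to 1 kb gave 204 members (0.633% of autosomal peaks) in 169 domains, with a median of 70.3% covered and 39.2% crossing an end. Domains of 10 kb or wider gave 0.794% of peaks in 190 domains, 63.7% covered and 15.2% crossing. At least 200 bp of overlap gave 1.01% and 58.2% covered. At least 50% of the peak inside gave 187 members (0.580%) in 149 domains, 81.0% covered, 9.09% crossing and a median score of 83.2. CHD5 scores at or above the list median gave 138 members (0.853%) in 124 domains, 36.8% covered, 34.1% crossing, a median score of 172.6 and a median width of 2366 bp. H3K27me3 scores at or above the list median, joined again, gave 242 members (0.7504%) in 191 domains and 63.1% covered. Without chromosomes 7 and 17 the share was 0.945% and the median width 1456.5 bp. Joining across up to 5 kb gave 401 members and moved no value beyond its interval. Of 2 alternatives added after the data were examined, adding peaks in gaps brought the coverage difference from 7.85 to 4.10 points, and leaving out chromosomes 1, 2, 7 and 17 put 33.3% of members near chromosome ends, beside 9.51% of CHD5 peaks. Beyond construction, the cause of these shifts was not tested. Alternatives on gene starts were not run, since no annotation of the build was used. No paired analysis was possible because each group has 1 library. Depth and replicate error are unknown.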

Other observations

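The 41 CHD5 peaks that lay in gaps of wide domains, and were therefore no members, were short and of low score. Their median width was 1242 bp (exact binomial 95% interval 1142 to 1406) and their median score 87.0 (68.6 to 119), in domains with a median of 12.3 kb. The highest score, 315, was at chr16:1321295-1322917, in a domain of 90013 bp, followed by 186 at chr6:27469782-27471599 and 177 at chr1:223536065-223537604. The short widths follow in part from the joining rule, which caps the length of a gap and so of a peak lying in one. Score followed width among members, and the part of width in the low scores of the 41 peaks was not tested.

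Chromosome X, outside the rule, had 623 wide domains and 8 CHD5 peaks on their regions, or 2.90% of its 276 CHD5 peaks (1.26% to 5.63%). Of these 8, 2 crossed a domain end. Their scores ran from 50.3 to 206, with a median of 79.6 beside 83.9 for all CHD5 peaks of the chromosome, and their median covered share was 23.8%, from 2.29% to 86.5%.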
